A study of Mus musculus with 12 samples.

Results

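The subject of this account is the spleen T cells of B6 mice that had received bone marrow of NOD donors, called NODtoB6. They were taken by array title and filled 2 of the 12 arrays of the series, each a mouse cDNA array with 2 colour channels. NOD, the non-obese diabetic mouse, is an inbred strain that develops autoimmune diabetes, and B6 is the reference strain that does not. The groups used for comparison were spleen T cells of unmanipulated NOD mice and of NOD hosts given B6 marrow (B6toNOD), with 2 arrays each. The remaining arrays (spleen T cells of NOD.H2h4 and of the congenic B6.NODIdd1,5, and kidney of B6.NODIdd1,5) entered only the shared estimate of the spread. On the arrays of these 3 T cell groups the second channel held RNA of B6 spleen T cells, so each value is a log2 ratio to B6: 0 is an equal signal in both channels, and 1 is a 2-fold difference. The labels give no age, sex, sort, gate, host conditioning or number of animals, and do not say whether the 2 arrays came from separate mice. The p-values therefore measure only the spread between arrays of a group, pooled over all groups of the series, kidney included.

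In a marrow chimera the blood-forming cells of the host are replaced to an unknown degree by the donor's, and new T cells of donor origin mature in the host thymus, where they are selected on host and donor MHC molecules. T cells recognise peptides through the T cell receptor and its CD3 chains, and leave or enter the spleen by homing receptors such as Ccr7. Diabetes in NOD mice runs in many loci named Idd, of which the MHC (Idd1) is the strongest and Idd5 on chromosome 1 holds costimulatory genes. The donor share among the T cells of the NODtoB6 hosts was not measured here.

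Each array was centred on its own median, and probes with exactly 1 gene symbol were averaged by gene. The 2 NODtoB6 arrays held values for 19862 and 19744 of 20736 probes, within the range of 18837 to 20558 over the series. The deposited ratios had medians over all features of -0.30 and -0.16, which were subtracted, and drifted along the probe order by 0.44 and 0.73 between sixteenths of the probes. The median absolute ratio was 0.33 and 0.37 on the NODtoB6 arrays, 0.20 and 0.24 on the NOD arrays and 0.61 and 0.60 on the B6toNOD arrays, so a raw difference between groups also carries their unequal spread. No source used here names the dyes of the marrow arrays. Their direction was taken to be that of the NOD arrays, which carry the mice in Cy5 and B6 in Cy3; this direction is likely but an assumption, and every sign below rests on it. The correlation of a NODtoB6 array with an array of another group lay between 0.00 and 0.23 by Pearson's r. By Spearman's rho 3 of these pairs were slightly below 0, the lowest at -0.01 for the second NOD array. These values do not settle the direction. Spot brightness was not analysed here, so a large ratio may come from a dim spot.

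Against B6, 4103 of 15288 features tested differed in NODtoB6 at an adjusted p under 0.05 (limma with Benjamini-Hochberg adjustment), which is 26.8%, with 2104 higher (13.8%) and 1999 lower (13.1%). Of these features, 8252 were named genes, of which 2090 (25.3%) passed, 1065 higher (12.9%) and 1025 lower (12.4%). The median of all named genes was -0.01. Beyond 1 on the log2 scale there were 261 higher and 427 lower genes, and beyond 3 there were 8 higher and 34 lower. The arrays lay on the same side of 0 for 78.2% of the features, and their ratios correlated across features with r = 0.57 and rho = 0.66. These calls rest on the spread of all 12 arrays: with the 2 NODtoB6 arrays alone limma passed 0 features, while 4185 had an unadjusted p under 0.05. Without the centring only 16.7% of the called features were higher, against 51.3% with it, because the median of all features then lay at -0.24. Small ratios are therefore relative to the median gene of the array.

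**Figure D1:**
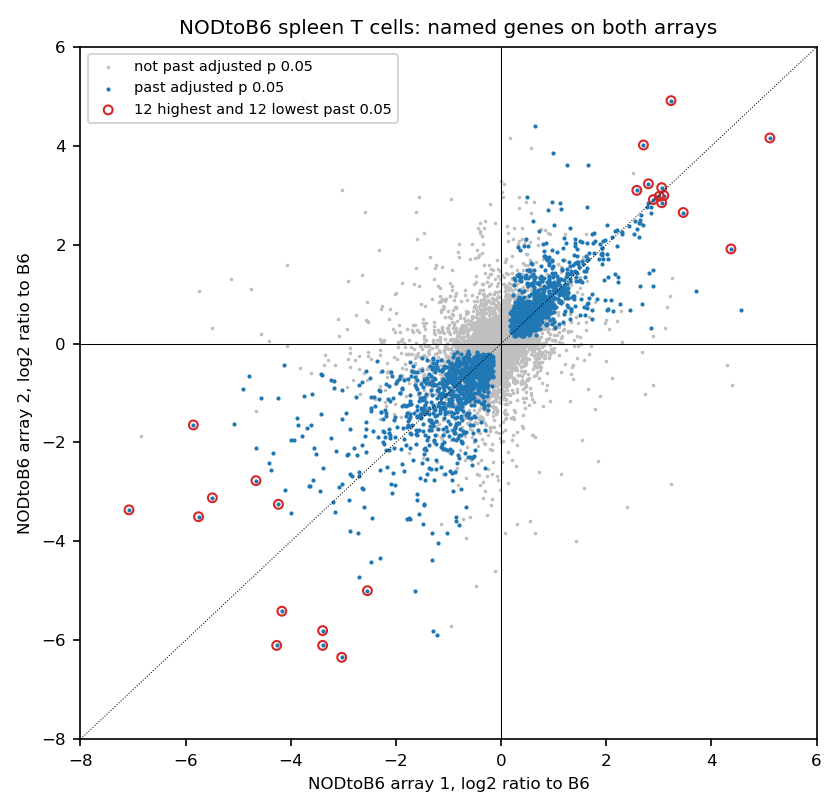
Log2 ratio to B6 of each named gene on NODtoB6 array 1 (horizontal) and array 2 (vertical), with genes past an adjusted p of 0.05 in blue and the 12 highest and 12 lowest of them ringed in red. All 24 ringed genes lie on the same side of 0 on both arrays, and values such as -7.08 and -3.36 for Erbb3 stand far from the dotted line of equal values.

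Of 39 genes of T cell identity and receptor signalling, 14 were tested: 2 were higher, 1 was lower and 11 did not pass. That is 21.4% called, near the 25.3% of all named genes, and their median was 0.09. Lcp2, the adaptor SLP-76 that links the receptor to downstream kinases, had 0.91 and 1.75 on the NODtoB6 arrays, against 0.34 and 0.19 in NOD and 0.77 on both B6toNOD arrays. Its mean of 1.33 ± 0.18 (n = 2 arrays) differed from B6 at an adjusted p of 0.00252 in limma. Here and below, each ± is the SE of the fit. It rests on the spread pooled over all 12 arrays, so it does not show how far the 2 NODtoB6 arrays agree. Cd28, the main costimulatory receptor of naive T cells, had 0.57 and 0.66 in NODtoB6 (mean 0.61 ± 0.10, adjusted p = 0.00514), against 0.76 and 0.42 in NOD and 0.12 and 0.27 in B6toNOD. The NODtoB6 and NOD values of Cd28 overlap, and its call was lost without the centring (0.38). Ccr7, the receptor that brings naive T cells to lymph nodes, was lower, with -0.48 and -0.32 in NODtoB6 (mean -0.40 ± 0.09, adjusted p = 0.0224), against 0.46 and 0.23 in NOD. The fall of Ccr7 did not pass without either NODtoB6 array or with the arrays scaled to equal spread. Cd4, the coreceptor of helper T cells, had 0.70 and 2.0 and did not pass (adjusted p = 0.0679). Il7r, the survival cytokine receptor of naive and memory T cells, had -0.15 and 0.08, and Cd247, the CD3 zeta chain, had -0.71 and -0.31 (adjusted p = 0.293). Cd3e, Cd8a and Ctla4 had no value. The 14 measured genes cannot check the labelled cell type. Each value is a ratio to B6 spleen T cells, so a value near 0 shows only a signal like that of B6.

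Of 32 genes of activated and regulatory T cells, 7 were tested, with 1 higher, 1 lower and 5 not past. The share called was 28.6%, near the 25.3% of all named genes, and the median was 0.02. Cd44, an adhesion receptor high on activated and memory T cells, had 0.35 and 0.19 in NODtoB6 (mean 0.27 ± 0.07, adjusted p = 0.0277, a call lost without array 1), against 0.28 and 0.37 in NOD and 0.77 and 0.73 in B6toNOD. Eomes, a T-box factor of effector and memory T cells and NK cells, was lower at -0.45 and -0.62 (mean -0.54 ± 0.07, adjusted p = 0.00285), against 0.07 and -0.09 in NOD and 0.91 and 0.87 in B6toNOD. Icos, the inducible costimulator, had 0.27 and 0.23 and did not pass (adjusted p = 0.804). Entpd1 (CD39) and Nt5e (CD73), which together turn ATP into adenosine, had means of 0.68 and -0.58 that did not pass either (adjusted p = 0.278 and 0.332).

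Markers of other blood cells were followed in the same arrays. Fewer cells of a type and less RNA per cell cannot be told apart in such bulk samples, and ratios give no summed level of a marker list. Of 38 myeloid markers 15 were tested, of which 9 were higher, 1 was lower and 5 did not pass. Their median was 0.84, and 66.7% were called, beside 25.3% of all named genes. S100a9, a subunit of the neutrophil calprotectin complex, had 3.10 and 3.0 in NODtoB6 (mean 3.05 ± 0.12, adjusted p = 9.68e-06), against 2.13 and 2.20 in NOD and 6.39 and 6.96 in B6toNOD. Lcn2, the siderophore-binding granule protein, had 3.05 and 2.85 (mean 2.95 ± 0.25, adjusted p = 0.000322), against 1.03 and 1.18 in NOD and 5.77 and 5.68 in B6toNOD. For both genes the NODtoB6 arrays lay above the NOD arrays and below the B6toNOD arrays, with no overlap. This order depends on the unequal spread of the arrays: scaled to equal spread, S100a9 minus NOD turned to -0.50 and Lcn2 minus B6toNOD, at -0.40, no longer passed. Lyz2, the lysozyme of macrophages and neutrophils, had 2.65 and 2.49 (mean 2.57 ± 0.09), against 0.74 and 0.45 in NOD and 3.60 and 3.54 in B6toNOD. Alox5ap, which feeds arachidonic acid to leukotriene synthesis, had 2.21 and 2.29, against 0.63 and 0.52 in NOD and 3.63 and 3.61 in B6toNOD. Cst3, the cystatin of macrophages and dendritic cells, had 1.94 and 1.72, and Ltf, the lactoferrin of secondary granules, 0.85 and 0.71. The receptor chains Fcer1g and Fcgr3 and the oxidase subunit Cyba rose by means of 0.85, 0.84 and 0.65. The Fcer1g call was lost without either array, and its 2 probes disagreed, 1.29 and 1.80 on one against 0.24 and 0.07 on the other. Csf3r, the G-CSF receptor, was lower at a mean of -0.22 (adjusted p = 0.0437), a call lost without either array. Cybb (mean 1.29, adjusted p = 0.0636) and Mmp9 (mean 0.09) did not pass, and neither did C1qa, C1qb and C1qc. Among dendritic cell markers, 1 of 5 tested was higher: Itgax (CD11c) had 1.12 and 2.84 (adjusted p = 0.0172), a call lost without array 2. Ppbp, a platelet chemokine and 1 of 2 platelet markers tested, had 1.83 and 0.90 (adjusted p = 0.0385), a call lost without either array. The haematopoietic progenitor markers gave 0 calls among 6 tested. The part of these cell types in other results was not tested.

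Of 37 erythroid markers 19 were tested, with 9 higher, 1 lower and 9 not past. The share called was 52.6%, beside 25.3% of all named genes, and the median was 0.63. Hbb-bh1, an embryonic beta-like globin of the probe annotation, had 3.05 and 3.16 in NODtoB6 (mean 3.10 ± 0.08, adjusted p = 5.28e-06), against 2.73 and 2.90 in NOD and 0.48 and 0.55 in B6toNOD. Hbb-b1, an adult beta globin, had 2.58 and 3.10 (mean 2.84 ± 0.13), against 3.33 and 3.29 in NOD and 1.73 and 1.74 in B6toNOD. Hbb-y and Hba-x, annotated as embryonic globins, had means of 2.74 ± 0.10 and 2.54 ± 0.11. Globin paralogs share sequence that a cDNA probe can bind, so the members cannot be told apart here. The 9 higher calls and the share of 52.6% count each of these globins as a separate member. Alas2, the first enzyme of haem synthesis in red cells, had 2.79 and 2.84 (mean 2.82 ± 0.16), against 2.21 and 1.65 in NOD, and Fech, the last enzyme, had 1.89 and 1.80. Bpgm, which makes the red cell's 2,3-bisphosphoglycerate, and Car2, a carbonic anhydrase, were higher at means of 1.16 and 0.89. The Bpgm mean joins a probe at 2.20 and 2.24 with one at 0.25 and -0.05. Tfrc, the transferrin receptor, was higher at 0.44, while Cpox, another haem enzyme, was lower at -0.43; the calls of Car2, Tfrc and Cpox were lost without array 2. Of the 4 Tfrc probes, 2 were positive on both arrays, 1 was negative on both and 1 was negative on array 1 only. Gata1, the erythroid master factor, had -0.50 and -0.18 and did not pass (adjusted p = 0.0514), nor did the band 3 anion exchanger Slc4a1 (mean 0.79, adjusted p = 0.235). In the settings that pool the spread over several groups, the 9 higher myeloid calls stayed between 6 and 10 and the 9 higher erythroid calls between 7 and 10.

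B cell and cytotoxic markers went in both directions. Of 28 B cell and plasma cell markers 10 were tested, with 3 higher, 3 lower and 4 not past, and a median of -0.54. Jchain, which joins the units of secreted IgM and IgA in plasma cells, had 2.80 and 3.23 in NODtoB6 (mean 3.02 ± 0.20, adjusted p = 0.000104), against 0.63 and 0.73 in NOD and 1.45 and 0.67 in B6toNOD. Ighm, the mu heavy chain, had 1.01 and 1.24 (mean 1.12 ± 0.20, adjusted p = 0.00924), against 0.93 and 0.87 in NOD, a call lost without array 2. Cd24a, a surface protein of developing B cells and many other blood cells, had a mean of 1.12 ± 0.10. Vpreb3, a surrogate light chain partner of B cell precursors, had -2.48 and -4.41 (mean -3.45 ± 0.72, adjusted p = 0.0135), and the kinase Blk and the scaffold Bank1 were lower at -1.40 and -1.26 with adjusted p of 0.0444 and 0.0484. The call of Vpreb3 was lost without array 2. The 3 lower calls fell to 1 without NODtoB6 array 1, without the kidney arrays, under the replicate block or with only features measured on all 12 arrays, and to 0 without array 2. Cd79b had -0.85 and -0.48 and Blnk -1.53 and -1.36, neither past the threshold, and Cd79a had no value. Of 21 NK and cytotoxic markers 8 were tested, with 4 higher and 2 lower, which is 75.0% called beside the same 25.3%. Gzmm, the granule protease granzyme M, was the lowest of them at -3.99 and -3.43 (mean -3.71 ± 0.41, adjusted p = 0.0019), against -0.52 and -0.25 in NOD and -1.14 and -1.47 in B6toNOD. Srgn, the proteoglycan that packs granules, had 0.88 and 1.14, and Klrk1, the NKG2D receptor, had 0.53 and 0.52, against -0.37 and -0.64 in NOD. Serpinb9, the inhibitor of granzyme B, had 0.52 and 1.97, a call lost without array 2, and its 2 probes disagreed, 1.07 and 4.20 on one against -0.03 and -0.27 on the other. Without the centring 1 of the 4 higher calls in this list was left.

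**Figure D2:**
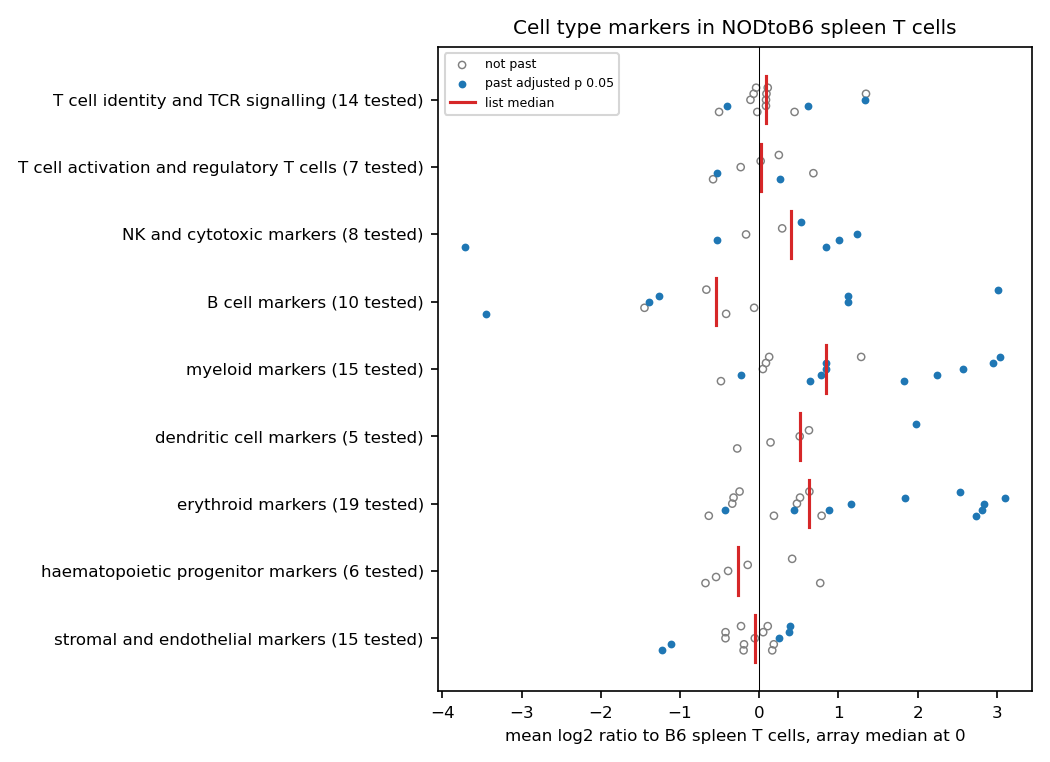
Mean log2 ratio to B6 over the 2 NODtoB6 arrays (horizontal) for each tested gene of 9 cell type marker lists; filled points passed an adjusted p of 0.05, open points did not, and red bars are list medians. The myeloid and erythroid medians lie at 0.84 and 0.63 and the T cell identity median at 0.09.

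The 12 highest genes against B6 included Hbb-bh1, Hbb-b1, S100a9, Lcn2 and Jchain, blood cell markers given in other paragraphs. The highest were Cdc16, a subunit of the anaphase-promoting complex, with 5.11 and 4.16 in NODtoB6 (mean 4.64 ± 0.25, adjusted p = 0.000123), against -1.04 and -0.51 in NOD. Ints8, a subunit of the Integrator complex that processes small nuclear RNAs, had 3.23 and 4.92, a call lost without array 2. Phykpl, a lyase of hydroxylysine breakdown, had 2.71 and 4.02, and the zinc finger factor Maz had 4.37 and 1.92, a call lost without array 1. Clec1b, the podoplanin receptor of platelets, had 3.46 and 2.65. Pam, which amidates peptide hormones, and Rnpc3, a minor spliceosome protein, had values of 2.90 and 2.92 and of 3.01 and 2.98, against 3.21 and 2.91 and 3.19 and 2.66 in NOD, so that the NODtoB6 and NOD values overlap. The Rnpc3 call was lost without either array. Cd200, the surface ligand that restrains myeloid cells, had 2.43 and 2.37 (mean 2.40 ± 0.07, adjusted p = 3.52e-06), against 3.57 and 3.73 in NOD and 1.57 and 1.58 in B6toNOD. Nr2f2, an orphan nuclear receptor of veins and stroma, had 2.70 and 2.41, against 3.52 and 3.51 in NOD and 2.0 and 1.93 in B6toNOD. For both of these genes the 3 groups did not overlap. Xist, which silences an X chromosome in female cells, had -0.30 and -0.31 and did not pass.

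The lowest genes were Erbb3, a receptor of the epidermal growth factor family, with -7.08 and -3.36 (mean -5.22 ± 0.72, adjusted p = 0.00272), and the transporter Slco6c1, with -4.27 and -6.11. Rpusd1, a pseudouridine synthase domain protein, had -4.17 and -5.41, Snx6, a sorting nexin, had -3.03 and -6.35, and Isca1, an iron-sulphur cluster assembly factor, had -3.40 and -5.81. The others of the 12 lowest were 4930467E23Rik, Arhgap12, Chchd4, Dclk3, Oc90, Kpna7 and Dnpep, with means between -4.75 and -3.72. On the NOD arrays these 12 genes lay between -1.64 and 0.81. The order of the probes in the table bore on these values. Dividing the probes into 18 runs of 1152, 195 probes lay under -2 on both NODtoB6 arrays, and 111 of them stood among the last 96 probes of a run, places that hold 8.33% of all probes. Of the probes at those places 8.11% were under -2 on both NODtoB6 arrays, against 0.471% of the other probes. In the other groups the share at those places was 0.592% in NOD, 0.676% in B6toNOD, 0% in NOD.H2h4, 0.514% in B6.NODIdd1,5 and 2.34% in the kidney. Of the 12 lowest genes 10 had a probe there, all but Arhgap12 and Oc90, and so did 23 of the 34 called genes below -3. Of the 12 highest, 3 did: Hbb-bh1, Hbb-b1 and S100a9. Gzmm, Plk1, Uqcrh and Agpat1, described in other paragraphs, also had their only probe at such a place. Among the higher genes described there, so did Ighm, Srgn and Cyp27a1. The cause of this pattern was not tested, and without the probes at those places the number of features passing was 3754.

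**Figure D3:**
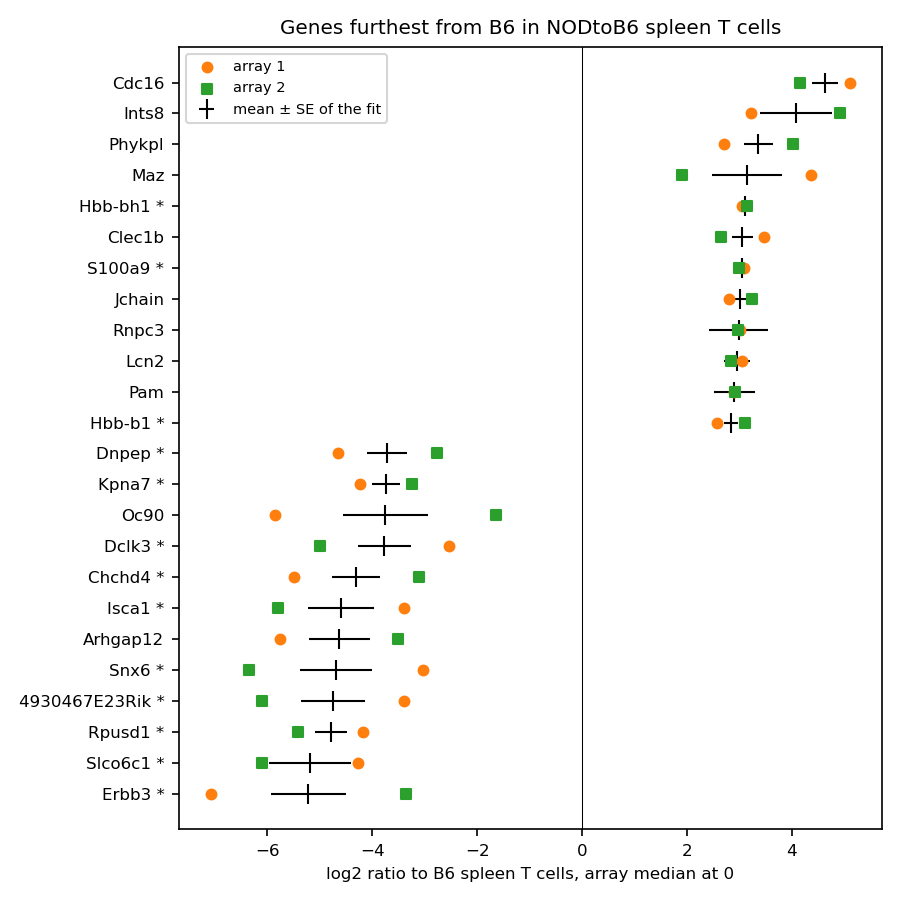
Log2 ratio to B6 on NODtoB6 array 1 (orange circles) and array 2 (green squares) of the 12 highest and 12 lowest genes past an adjusted p of 0.05. The mean and the SE of the fit, which pools the spread of all groups, are in black. An asterisk marks the genes with a probe among the last 96 of a run of 1152 in the probe order: 10 of the 12 lowest and 3 of the 12 highest carry one.

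In the MHC region, class II genes differed. H2-Aa, the alpha chain of the class II molecule I-A, had 1.63 and 1.68 in NODtoB6 (mean 1.66 ± 0.24, adjusted p = 0.00472), against -0.09 and -0.66 in NOD and -3.93 on the only B6toNOD array with a value. H2-Eb1, the beta chain of I-E, had 0.66 and 0.58 and Ifi30, the thiol reductase of antigen processing, 0.47 and 0.30, both near the threshold (adjusted p = 0.0285 and 0.0458) and both lost without either NODtoB6 array. H2-Ob, the beta chain of the peptide-loading regulator H2-O, was lower at -2.25 and -2.0 (adjusted p = 0.0445, lost without either array), and H2-DMa, of the loading factor H2-DM, had 0.04 and -0.01. So 3 of 5 tested class II genes were higher and 1 lower, and the 3 became 1 without the centring and without either array. The share called was 80.0% of these 5, beside 25.3% of all named genes. H2-Ab1 and Cd74 had no value. Of 10 class I genes tested 2 were higher. B2m, the light chain of class I molecules, had 0.85 and 0.79 (mean 0.82 ± 0.15, adjusted p = 0.00916), against -0.15 and -0.60 in NOD and 1.81 and 1.83 in B6toNOD. Psme1, a proteasome activator, had 0.45 and 0.38, and both calls were lost without the centring and without either array. The immunoproteasome subunits Psmb9 (1.39 and 1.45) and Psmb8 (1.35 and 0.94) did not pass, with adjusted p of 0.146 and 0.167.

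Of 27 further genes of the MHC region, 5 were higher and 4 lower, and their median was 0.00. The share called was 33.3%, beside 25.3% of all named genes. Clic1, a chloride channel protein, had 1.10 and 1.06 (mean 1.08 ± 0.07, adjusted p = 0.000116), against 0.24 and 0.27 in NOD and 1.99 and 1.79 in B6toNOD. Nrm, Flot1, Wdr46 and Mdc1 were higher at means of 1.17, 0.68, 0.33 and 0.31. Agpat1, which makes phosphatidic acid, was the lowest at -2.31 and -2.55 (mean -2.43 ± 0.09, adjusted p = 6.16e-06), against 0.10 and 0.28 in NOD and 1.57 and 1.44 in B6toNOD. Tubb5, a beta tubulin, had a mean of -1.10, but of its 3 probes 2 had values between 0.14 and 0.43 and the other, at the end of a run, had -3.14 and -4.56. Without that probe its mean was 0.26. Dhx16 and Rps18 were lower at -0.58 and -0.23. The calls of Nrm and Rps18 were lost without either array, and those of Flot1, Mdc1 and Dhx16 without array 2. Of 32 genes of the Idd5 region 5 were higher and 4 lower, with a median of 0.09. The share called was 28.1%, near the 25.3% of all named genes. The higher were Cyp27a1, a sterol hydroxylase, with 0.77 and 1.26, then Tns1, Cd28, Bmpr2 and Ctdsp1, all 5 calls lost without the centring. The lower were Orc2, of the origin recognition complex, with -0.79 and -1.32 from 1 of its 3 probes (-2.44 and -3.90, the others between -0.14 and 0.13), the DNA end-binding protein Xrcc5 with -0.75 and -0.97, then Fam126b (mean -0.63) and Bcs1l (mean -0.44). The call of Orc2 was lost without either array and that of Xrcc5 without array 2. Of 9 Idd candidates from other loci 1 was higher, which is 11.1% called.

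Interferon-induced genes rose or did not pass. Of 51 such genes 20 were tested, and 9 were higher, 0 lower and 11 not past the threshold in limma. Their median was 0.49, and 45.0% were called, beside 25.3% of all named genes. Gbp2, a guanylate-binding protein that attacks vacuoles of microbes, had 1.77 and 2.25 in NODtoB6 (mean 2.01 ± 0.14, adjusted p = 0.000276), against 0.22 and 0.32 in NOD and 0.43 on the only B6toNOD array with a value. Ifitm3, a membrane protein that blocks virus entry, had 2.02 and 1.81 (mean 1.92 ± 0.10, adjusted p = 3.31e-05), against 0.23 and -0.06 in NOD and 4.17 and 4.14 in B6toNOD. Ifitm1, its relative, had 1.76 and 1.83, against -0.78 and -2.75 in B6toNOD, and its call (adjusted p = 0.0325) was lost without either array, without the centring, under the running median, without the kidney arrays and under the replicate block. Igtp, an immunity-related GTPase, had 0.96 and 1.54 (mean 1.25 ± 0.16, adjusted p = 0.00197). Trim25, Ifi203, Samhd1, Psme1 and Ifitm2 were higher at means from 0.58 to 0.30, with the calls of Psme1 and Ifitm2 lost without either array. Without the centring 3 of the 9 higher calls were left, and without the run-end probes 8 were. Ly6e, a surface protein, had 0.16 and -0.08 and did not pass, against -1.72 and -2.01 in NOD and 1.64 and 1.47 in B6toNOD. Irf1 (0.66 and 0.42), Tgtp1 (0.49 on both arrays) and Isg20 (-0.01 and -0.35) did not pass. Against B6, 3 of these 20 genes were higher and 2 lower in NOD, and 10 of 17 were higher and 2 lower in B6toNOD. The share called over all features is not given here for those 2 comparisons, and their arrays differ in spread. These counts therefore do not show whether the list stands out in either group.

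The 2 highest interferon-induced genes with a match in their promoter are shown with 300 bases around the start of transcription, from RefSeq on GRCm38.p6, 5′ to 3′ on the strand of the gene. Capitals mark the core of the element bound by interferon factors, GAAA and again GAAA after any 2 bases, searched on both strands; on the other strand it reads TTTC, any 2 bases, TTTC. The windows are chr3:142620413-142620712 on the plus strand for Gbp2 and chr7:141010695-141010994 on the minus strand for Ifitm3.
Gbp2: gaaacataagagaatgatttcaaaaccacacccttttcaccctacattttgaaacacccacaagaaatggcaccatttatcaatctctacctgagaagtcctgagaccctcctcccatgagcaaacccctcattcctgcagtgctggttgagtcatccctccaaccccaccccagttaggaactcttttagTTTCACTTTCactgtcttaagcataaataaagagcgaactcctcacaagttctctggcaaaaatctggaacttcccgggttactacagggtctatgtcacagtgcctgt
Ifitm3: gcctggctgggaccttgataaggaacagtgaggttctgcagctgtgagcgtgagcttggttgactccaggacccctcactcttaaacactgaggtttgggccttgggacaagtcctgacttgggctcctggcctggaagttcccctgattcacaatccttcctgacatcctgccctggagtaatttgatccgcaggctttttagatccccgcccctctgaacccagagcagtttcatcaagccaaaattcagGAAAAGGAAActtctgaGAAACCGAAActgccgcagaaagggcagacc
The motif stood in 6 of the 9 higher members and in 3 of 8 members not past the threshold that had a window, against 3.44% of 32851 windows. The genes and the motif were chosen with their values known, so these shares are a description.

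Immediate-early genes, which cells switch on within minutes of a stimulus, and feedback inhibitors of NF-kappaB also differed. Of 40 such genes 24 were tested, with 10 higher, 3 lower and 11 not past. The share called was 54.2%, beside 25.3% of all named genes, and the median was 0.23. Dusp1, the phosphatase that switches off MAP kinases, had 2.17 and 2.28 in NODtoB6 (mean 2.23 ± 0.07, adjusted p = 4.46e-06), against 0.43 and 0.35 in NOD and 1.29 and 1.21 in B6toNOD. Zfp36, tristetraprolin, which destabilises cytokine mRNAs, had 1.91 and 1.83 (mean 1.87 ± 0.14), against -0.06 and -0.27 in NOD and 0.96 and 0.76 in B6toNOD. Btg2, an antiproliferative gene, had 0.86 and 0.90, against -0.01 and -0.27 in NOD. In these 3 genes the NODtoB6 arrays lay above all arrays of both other groups. Fos, of the AP-1 factor, had 0.61 and 0.42 (mean 0.51 ± 0.07, adjusted p = 0.00342), against -0.95 and -0.86 in NOD and 1.13 and 1.19 in B6toNOD, a call lost without the centring. Nfkbia, the inhibitor IkappaB-alpha, had 0.64 and 0.48, against 0.41 and 0.38 in NOD, also lost without the centring, and Nfkbib had 0.87 and 0.69 (adjusted p = 0.0445). The calls of Nfkbib, Jun, Sgk1 and Klf6 were lost without either array. Atf3, Jun, Sgk1 and Klf6 were higher at means from 0.80 to 0.24. Jund, another AP-1 member, was lower at -2.61 and -3.30 (mean -2.95 ± 0.40, adjusted p = 0.00393), and Zfp36l1 was lower at a mean of -0.64. Klf4, a differentiation factor, had a mean of -2.44 ± 0.18, but its probe at the end of a run had -3.53 and -4.85 and its other probe -0.52 and -0.86. Without the first its mean was -0.71, still past the threshold. The 10 higher calls were 4 without the centring and 6 without either NODtoB6 array, and the 3 lower ones 5 without the centring.

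The promoters of the 2 highest of these genes that hold the full cAMP response element TGACGTCA, the site of CREB and ATF factors, are printed with that element in capitals; it reads the same on both strands. The windows are chr17:26508423-26508722 for Dusp1 and chr1:134079106-134079405 for Btg2, both on the minus strand of GRCm38.p6, from RefSeq.
Dusp1: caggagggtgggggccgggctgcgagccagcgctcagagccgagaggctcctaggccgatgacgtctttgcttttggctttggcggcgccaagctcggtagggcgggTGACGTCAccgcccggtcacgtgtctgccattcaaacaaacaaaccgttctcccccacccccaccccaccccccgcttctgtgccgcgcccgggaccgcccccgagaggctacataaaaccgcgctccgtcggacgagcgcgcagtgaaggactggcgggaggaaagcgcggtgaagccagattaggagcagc
Btg2: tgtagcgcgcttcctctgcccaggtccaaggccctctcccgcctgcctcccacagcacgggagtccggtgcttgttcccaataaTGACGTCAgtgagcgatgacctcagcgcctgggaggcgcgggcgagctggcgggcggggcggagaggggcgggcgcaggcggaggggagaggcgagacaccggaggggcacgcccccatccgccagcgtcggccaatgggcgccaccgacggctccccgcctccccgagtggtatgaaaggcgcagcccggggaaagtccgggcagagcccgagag
It stood in 2 of 10 higher members and 0 of 7 members not past, against 1.79% of all windows, chosen and described as for the other motif.

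Of 61 nuclear genes of oxidative phosphorylation, all tested, 20 were higher and 3 lower, which is 37.7% called beside 25.3% of all named genes, and the median was 0.27. Ndufv2, of the core of complex I, had 1.02 and 1.05 in NODtoB6 (mean 1.03 ± 0.10, adjusted p = 0.000669), against 0.15 and 0.17 in NOD and 0.33 and 0.02 in B6toNOD. Ndufv1 and Cox8a had means of 1.31 and 1.02, but in each the 2 probes disagreed (2.66 and 1.94 against -0.04 and 0.69 in Ndufv1, 2.08 and 2.34 against -0.08 and -0.24 in Cox8a). Ndufb9 was higher at 0.98. Uqcrh, of complex III, had -1.29 and -5.81 and Cox7c, of complex IV, -0.60 and -1.04. Ndufa10 was lower at -0.29, and the calls of Cox8a and Ndufa10 were lost without array 2. The 20 calls were 4 without the centring, 9 without array 1 and 13 without array 2. Of 41 genes of glycolysis and the citric acid cycle 9 were higher and 2 lower, 26.8% called and so near that share, with a median of 0.29. Pgk1 had 1.03 and 1.05 and Gapdh 0.95 and 0.77, against -0.29 and -0.68 and 0.30 and 0.31 in NOD. Ldha, which makes lactate, had 0.88 and 0.68, against -0.46 and -0.79 in NOD, and Pkm and Tpi1 had means of 0.67 and 0.73. The B6toNOD arrays lay higher still, with 2.81 and 2.65 for Pgk1, 3.21 and 3.15 for Gapdh and 1.85 and 1.56 for Ldha. Pdk1, which blocks pyruvate dehydrogenase, had -1.88 and -0.91, against -1.86 and -1.89 in NOD. The enzymes' 9 calls were 4 without the centring.

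Among the other large lists, the share called was near the 25.3% of all named genes for ribosomal (25.7%), proteasome (25.0%), replication (25.0%), translation (27.9%) and splicing genes (21.8%). Of 74 cytosolic ribosomal protein genes 7 were higher and 12 lower, with a median of 0.01. Rpl10 (mean 0.48) and Rpl7 (0.47) were among the higher and Rplp1 (-0.65) and Rps19 (-0.58) among the lower, and Rpl15, called lower at -0.58, had a mean of 0.50 without its run-end probes. Of 45 mitochondrial ribosomal protein genes 4 were higher and 4 lower, which is 17.8% called. Mrps36 had 1.41 and 1.98, a call lost without array 2, and Mrpl19 had -1.82 and -1.47, with both of its probes at run ends. Of 40 proteasome subunits 8 were higher and 2 lower, with a median of 0.30. Psma1, of the core ring, had 0.92 and 1.0 (mean 0.96 ± 0.08), and Psmb11, the thymus subunit, had -0.32 and -1.25, a call lost without array 2 (probes at -0.55 and -1.90 and at -0.10 and -0.60). These 8 were 1 without the centring, 2 without array 1 and 1 without array 2. Of 43 translation factors 8 were higher and 4 lower, and of 55 splicing factors 6 were higher and 6 lower. Of 64 genes of replication and mitosis 10 were higher and 6 lower. Stmn1, a microtubule destabiliser, had 1.31 and 1.56 (mean 1.44 ± 0.09), against 0.16 and 0.09 in NOD and 2.24 and 2.07 in B6toNOD. Pcna, the sliding clamp, had 0.74 and 0.72, against -0.26 and -0.59 in NOD, a call lost without array 2. Plk1, the polo-like mitotic kinase, had -3.99 and -1.95, and Birc5, survivin, had -1.52 and -1.10. The 10 higher calls of this list were 4 without the centring, 6 without array 1 and 3 without array 2. Of 44 heat shock proteins and chaperones 5 were higher and 10 lower, which is 34.1% called. Pdia4, a disulphide isomerase, had 0.84 and 1.12, and Dnajb6 -1.60 and -1.35, the mean of a probe at -3.51 and -2.88 and one at 0.31 and 0.19. Hspa13 and Hspa4 had means of -1.90 and -1.58, calls lost without array 1. Hspd1 and Hsph1, also called lower, had 1 run-end probe each, and without it Hspd1 had -0.43 and Hsph1 0.26, neither past the threshold. Of 19 apoptosis regulators 2 were higher and 1 lower, which is 15.8% called. Of 28 cytokines, chemokines and receptors 2 were higher (Tgfbr3 at 0.90 and Il7 at 0.32) and 1 was lower, which is 10.7% called. The call of Tgfbr3 was lost without array 2 and that of Il7 without either array. Of 15 stromal and endothelial markers 3 were higher and 2 lower, which is 33.3% called. Col1a2 had a mean of -1.23 and Dcn -1.12, both lost without array 2, the first also not past without its run-end probes (-0.48).

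**Figure D4:**
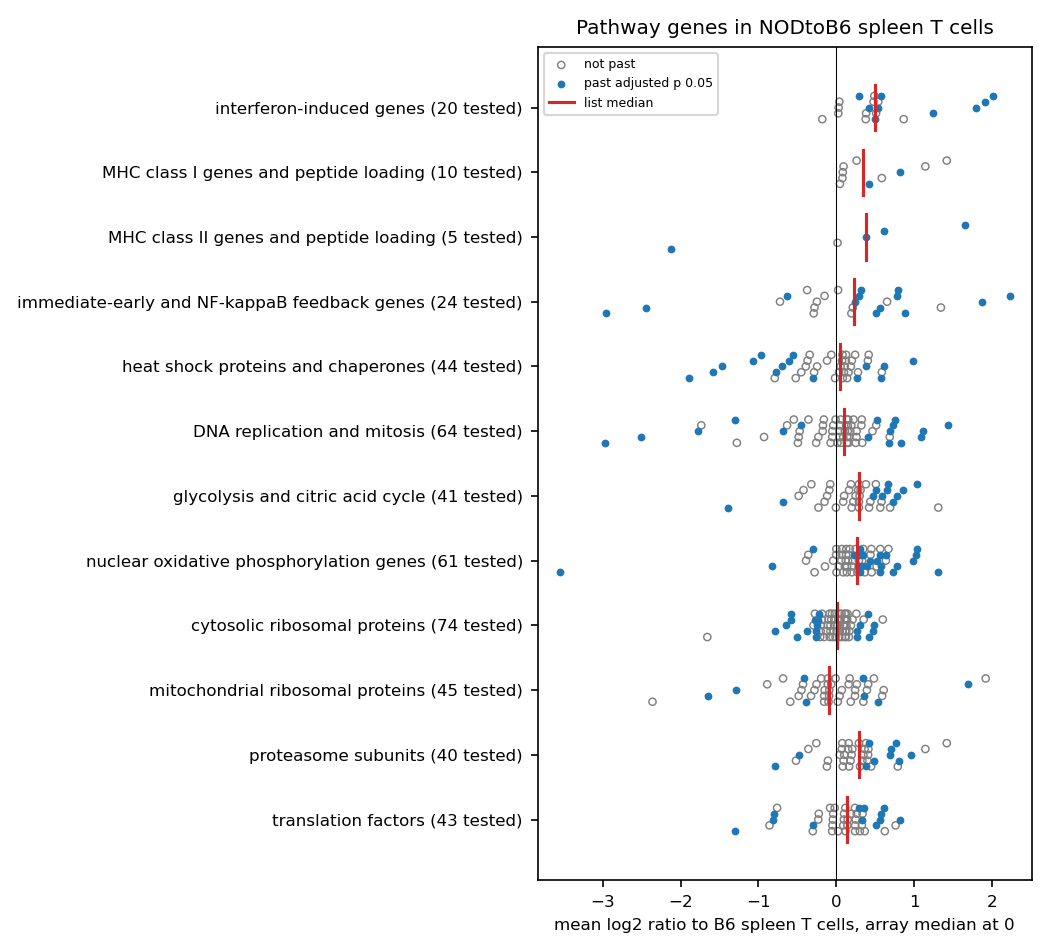
Mean log2 ratio to B6 over the 2 NODtoB6 arrays (horizontal) for each tested gene of 12 pathway lists, drawn as in the plot of cell type markers. The oxidative phosphorylation and proteasome medians are 0.27 and 0.30, against 0.01 for the cytosolic ribosomal proteins.

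Unmanipulated NOD T cells share the donor strain of NODtoB6 and differ in host and in the transfer. The NODtoB6 and NOD values each carry B6 in the second channel, so the 2 comparisons with B6 are not independent. Of 15029 features tested, 2874 (19.1%) differed between NODtoB6 and NOD in limma, 1130 higher (7.52%) and 1744 lower (11.6%). Of 8168 named genes 1298 did (15.9%), with 623 higher (7.63%) and 675 lower (8.26%). Without NOD array 2 the count was 884, and without the centring 1419, of which 21.5% were higher, against 39.3% in the main count. The largest differences were Cdc16 at 5.41 ± 0.36 and Ints8 at 4.87 ± 0.97, then Pfkp, the platelet isoform of phosphofructokinase, at 3.85 ± 0.59. Pfkp had 1.51 and 1.12 in NODtoB6 and did not pass against B6 (adjusted p = 0.072), against -1.63 and -3.44 in NOD. Ppp3cc, a catalytic subunit of calcineurin, differed by 3.63 (adjusted p = 0.0399), with 1.25 and 3.62 in NODtoB6, against -0.99 and -1.40 in NOD, and its call was lost without NODtoB6 array 2 and without either NOD array. Atic, an enzyme of purine synthesis, had -0.50 and 0.28, against -4.79 and -2.51 in NOD. Erbb3 (-5.53), Isca1 (-5.25), Slco6c1 (-5.06), Rpusd1 (-4.93) and Snx6 (-4.33) were the lowest and all 5 lay at run ends. Without NOD array 2 the calls of Ints8, Erbb3, Isca1, Slco6c1 and Snx6 were lost, those of Slco6c1 and Snx6 also without NOD array 1, and those of Ints8, Slco6c1 and Atic without NODtoB6 array 2. Among the markers, Lyz2 was higher than in NOD by 1.98 ± 0.13 (adjusted p = 0.000517), Jchain by 2.34 ± 0.28, Ifitm3 by 1.83 ± 0.14 and Gbp2 by 1.74 ± 0.19. Dusp1, Zfp36 and Fos were higher by 1.84, 2.04 and 1.42, and Pgk1 and Ldha by 1.52 and 1.40. H2-Aa was higher by 2.04 ± 0.34 (adjusted p = 0.0104), a call lost without NOD array 2. Cd200 and Nr2f2 were lower than in NOD by -1.25 and -0.97. Hbb-b1 and Hbb-bh1 differed by -0.47 and 0.29 and did not pass (adjusted p = 0.112 and 0.118). S100a9 was higher by 0.88 (adjusted p = 0.0138), but without either NOD array it did not pass, and with the arrays scaled to equal spread the difference turned to -0.50, and those of Alas2, Hbb-bh1 and Hbb-y turned negative too. Of the 15 myeloid markers 7 were higher and 1 lower than in NOD, and of 20 interferon-induced genes 8 were higher and 1 lower.

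The last comparison was with the reciprocal transfer, B6 marrow into NOD hosts. Of 13676 features tested 4918 (36%) differed between NODtoB6 and B6toNOD, 1881 higher (13.8%) and 3037 lower (22.2%). Of 7462 named genes 2458 (32.9%) did, with 912 higher (12.2%) and 1546 lower (20.7%). Without the centring 80.7% of the called features were higher, against 38.2% with it, so the direction of small differences depends on the centring. It also depends on the assumed dyes: 45.8% were higher with the NODtoB6 signs turned and 61.8% with those of both marrow groups turned. With the arrays scaled the count was 3127, against 4788 for the comparison with NOD, so the counts of these comparisons have no settled order. The largest were Ints8 (5.44), Kctd20 (5.35), Pcsk5 (4.89), Col8a2 (4.47) and Poldip3 (4.42) among the higher, and Fezf2 (-5.43), 4930467E23Rik (-5.35), Oc90 (-4.94), Snx6 (-4.94) and Chchd4 (-4.77) among the lower. Pcsk5, a proprotein convertase, had 0.16 and -0.04 in NODtoB6, against -4.28 and -5.39 in B6toNOD. The Kctd20 call was lost without NODtoB6 array 2, and the Poldip3 call without any of the 4 arrays compared. Fezf2, a factor that drives self-antigens in the thymus, had -1.45 and -2.76, against 2.78 and 3.88 in B6toNOD. Hbb-bh1 was higher than in B6toNOD by 2.59 ± 0.11, Hba-x by 1.73 ± 0.15 and Jchain by 1.96 ± 0.28. Myeloid genes were lower: S100a9 by -3.63 ± 0.17, Lcn2 by -2.77 ± 0.35, Alox5ap by -1.37 ± 0.10 and Lyz2 by -1.0 ± 0.13. S100a9, Hbb-bh1, 4930467E23Rik, Snx6 and Chchd4 had their only probe at a run end of the probe order. Run-end probes had medians of -0.34 and -0.19 on the NODtoB6 arrays, but 0.46 on both B6toNOD arrays. The other probes had medians of 0.02 and 0.01, and of -0.03 on both. How far this shift enters the differences of those genes was not tested. With the arrays scaled, Lcn2 and Ifitm3 (-2.24 ± 0.14) no longer passed and Alox5ap and Lyz2 turned to 0.16 and 0.54. Of 16 erythroid markers tested 9 were higher and 0 lower than in B6toNOD, and of 13 myeloid markers 1 was higher and 6 lower.

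**Figure D5:**
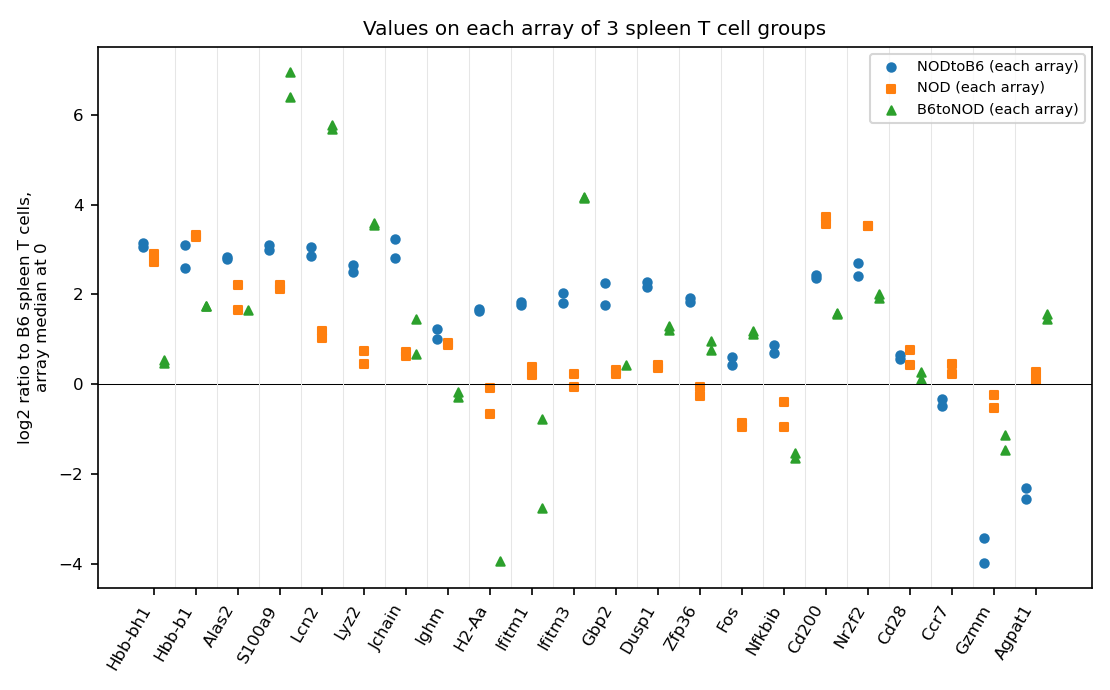
Log2 ratio to B6 (vertical) of 22 genes on each array of NODtoB6 (blue circles), NOD (orange squares) and B6toNOD (green triangles). S100a9 and Lcn2 lie lowest in NOD and highest in B6toNOD as plotted, though with the arrays scaled S100a9 minus NOD turned to -0.50 and Lcn2 minus B6toNOD no longer passed. Hbb-bh1 lies near 3 in NODtoB6 and NOD but near 0.5 in B6toNOD, and Dusp1 and Zfp36 lie highest in NODtoB6.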

How the data were processed

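Spleen T cells of 3 mouse groups (NODtoB6, NOD, B6toNOD) and 3 further groups were compared on 12 arrays, 2 per group, grouped by array title. Per the labels, the authors deposited log2 ratios of each mouse group over B6. Normalisation, scanner and spot finding: not given in the sources used here. Spot intensities were not analysed here. Of 20736 probes 13033 carried exactly 1 gene symbol, 312 several and 7391 none. Of the 13033, the symbols of 12850 were updated through the gene identifier to RefSeq. Probes with 1 symbol were averaged per gene and the others kept apart, which gave 16411 features, 8708 of them genes. Ratios of 100000 were treated as missing, and each array was centred on its median.

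limma 3.58.1 in R 4.3.3 fitted 6 group means to all arrays (residual degrees of freedom 6), tested NODtoB6 against 0 and against the other groups, and adjusted over all features. The test against 0 leaves out the spread of B6 itself. The limma step was tested on simulated data with independent noise. That noise held no run-end pattern, no drift along the probe order and no unequal spread of the arrays, so the simulation cannot speak to these. Precision is limited by having 2 arrays a group.

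The text names the 12 highest and 12 lowest called genes, the 5 largest differences each way, up to 4 called members of each of 29 lists, and 27 fixed genes; other list members were named after their values were seen. The members and lists were chosen with earlier results of these data known.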

Additional observations from a re-analysis of the deposited data

Results flagged for a closer look

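The genes given here differed between NODtoB6 and another group in limma's contrast and lay on opposite sides of B6, past the threshold in each. Against B6toNOD the differences were -3.94 for Agpat1, 1.78 for Bgn, 4.47 for Col8a2, 2.29 for Eif4ebp2, -2.10 for Eif4h, -1.43 for Eomes, -5.43 for Fezf2, 3.56 for Ifitm1, -4.45 for Plk1, 3.09 for Ppbp and 1.66 for Psmd10. Those of ribosomal and tubulin genes were -1.90 for Rpl15, -1.16 for Rps15, -1.90 for Rps19 and -2.40 for Tubb5. Against NOD they were 1.42 for Fos, 1.40 for Ldha and 0.79 for Mgp. Agpat1 and Plk1 had their only probe among the last 96 of a run of the probe order, where very low NODtoB6 probes lay, and Eif4h, Rpl15, Rps15 and Tubb5 each had 1 or more there. Rps15 kept its direction against B6 without them (-0.22), while Eif4h (0.49), Rpl15 (0.50) and Tubb5 (0.26) turned positive. On the B6toNOD arrays the run-end probes lay higher instead, with medians of 0.46 on both.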

How the results depend on the processing

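Against B6 the 4103 calls were 1959 with only named genes, 3754 without the run-end probes (an alternative chosen after seeing the data), 3864 under the replicate block, and 2314 to 3025 without an array. With only the groups compared, limma passed 0 features in each comparison (unadjusted 4185, 5006 and 4198). NODtoB6 minus NOD, 2874 in the main analysis, gave 1419 without centring, 4788 with scaled arrays, 1018 with only named genes, 2552 under the replicate block and 884 to 2749 without an array. NODtoB6 minus B6toNOD, 4918, gave 3127 scaled, 2319 with only named genes, 4740 under the block and 3919 to 5748 without an array. Some of these alternatives tested fewer features. The fits with only named genes tested 8252, 8168 and 7462, of which 2090, 1298 and 2458 passed in the main analysis. Without the run-end probes 14350 features were tested against B6, beside 15288 in the main analysis. The replicate numbers share no known mouse or day, and the deviations correlated at -0.04 to 0.02 over 15 group pairs, so the block is no pairing. With the sign of the NODtoB6 arrays turned the comparisons gave 4103, 3115 and 7099. Single genes were not recomputed with signs turned or per probe.

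Reversals of sign, cause not tested unless probes were removed, follow. Against B6, Ndufa13 (-0.00475) reversed without centring, and Eif4a2 (0.00375), Mdc1 (-0.027), Mrpl9 (0.035) and Ndufa10 (0.044) under the running median. Eif4h (0.49), Hsph1 (0.26), Rpl15 (0.50) and Tubb5 (0.26) reversed without run-end probes, whose removal leaves fewer probes. Minus NOD, scaling reversed Alas2 (-0.40), Hbb-bh1 (-1.58), Hbb-y (-0.56) and S100a9 (-0.50), the running median Cd44 (0.39), and the run-end removal Eif4h (0.84), Rpl15 (0.95) and Tubb5 (0.35). Minus B6toNOD, no centring reversed Cd44 (0.051) and Mrpl18 (0.0485), scaling Alox5ap (0.16), Lyz2 (0.54) and Stmn1 (0.19), and the run-end removal Hspd1 (0.07625). Of 238 gene results past against B6, 97 were lost without centring, 88 without NODtoB6 array 1 and 111 without array 2. Missing spot brightness limits what a large ratio can show.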
